A study of Mus musculus with 8 samples.

Results

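Mature migratory dendritic cells at the cortical injury site were 66 of 46216 quality droplets in 8 mice, found 6 days after photothrombotic stroke (PT). A quality droplet held at least 2000 UMIs, counted RNA molecules, with less than 20% of them from mitochondrial genes. A droplet was taken as a mature migratory dendritic cell when at least 2 of Ccr7, Fscn1 and Ccl22 were detected and these 3 genes together reached at least 3 UMIs per 10000 (cp10k). It also had to hold at least 10 cp10k of the MHC class II genes H2-Aa, H2-Ab1 and Cd74. Droplets with 1 cp10k or more of the microglial genes P2ry12, Tmem119 and Sall1, 0.5 cp10k or more of Cd3e, Cd3d and Cd3g, or 2 cp10k or more of the endothelial genes Cldn5 and Flt1 were left out. These 14 genes chose the cells, and their levels are given as a description. They were left out of the tests between classes, while the 6 of them that passed the filter on low counts stayed among the genes tested between treatments, where their differences are not used.

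Dendritic cells take up antigen in tissue and, once activated, mature: they stop collecting antigen, move MHC-peptide complexes and costimulatory proteins to the surface and leave for the draining lymph node. The chemokine receptor Ccr7 guides them along gradients of its ligands, and the actin-bundling protein Fscn1 (fascin) shapes the long processes of the moving cell. Ccl22 is a chemokine that attracts T cells carrying Ccr4, and Cacnb3, a calcium channel subunit, is a marker of the mature state. Conventional type 1 (cDC1) and type 2 (cDC2) dendritic cells can both reach this state, in which many genes of their lineage are turned down, and non-canonical NF-kB signaling is known to take part.

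The mice carried pumps with saline (control) or with ancrod, a snake venom enzyme that removes fibrinogen from blood, given at 2.4 U (2.0 mg/kg) a day and started 2 days before PT. PT was induced over a 4 mm wide area of the right sensorimotor cortex, and the injured cortex with a rim of spared tissue was taken without corpus callosum or meninges. Each treatment had 4 mice with 1 library per mouse. Red blood cells were lysed and myelin was removed with magnetic beads on a column, and the methods name no sort of the cells by a marker. The labels and design text name the strain Bl/J6 or C57Bl/6J and give the sex as female, whereas the methods name C57BL/6N mice of both sexes aged 8 to 12 weeks, which was not settled. Replicates 1 to 3 of each treatment formed batch 1 of injury and sequencing, and replicate 4 of each formed batch 2. All 8 libraries came from injured mice that carried a pump, and no uninjured or sham cortex was included. The libraries held 5080 to 6277 quality droplets and 97861434 to 142139441 UMIs in total, with median UMIs per quality droplet of 10653 to 14406 in saline and 13930 to 17575 in ancrod mice. Pairs of libraries shared 3 to 15 barcodes among their quality droplets.

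The 66 cells came from every mouse, with 5, 4, 5 and 4 cells in saline replicates 1 to 4 and 14, 17, 10 and 7 cells in ancrod replicates 1 to 4. The cells had a median of 14444 UMIs (2489 to 29130) and 3201 genes, and a median mitochondrial share of 2.35%. The sum of Ccr7, Fscn1 and Ccl22 had a median of 25.8 cp10k and ranged from 3.05 to 101. MHC class II RNA had a median of 124 cp10k and ranged from 13.5 to 643. Near the threshold, 10 cells lay between 3 and 5 cp10k of the 3 marker genes, and 13 further droplets with 2 detected markers lay between 1 and 3 cp10k. Another 57 droplets reached 3 cp10k with 1 detected marker, 3 were left out with 5 to 10 cp10k of MHC class II RNA and 4 with less, and 8 were left out by the genes of other cell types.

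The 4 marker genes lie apart in the genome (GRCm39, GENCODE vM39): Ccr7 at chr11:99035022-99045911 on the reverse strand, and Fscn1 at chr5:142946098-142958953, Ccl22 at chr8:95471226-95478327 and Cacnb3 at chr15:98528721-98542417 on the forward strand. Cacnb3, which the selection did not use, was detected in 43 of the 66 cells. The other markers were detected in 63 cells for Ccr7, 46 for Fscn1 and 40 for Ccl22, and 17 cells held all 3. Ccr7 and Fscn1 without Ccl22 made up 26 cells, Ccr7 and Ccl22 without Fscn1 made up 20, and Fscn1 and Ccl22 without Ccr7 made up 3. Cacnb3, the marker of the 4 that is independent of the selection, was detected in 41 of the 46 cells with Fscn1 and in 2 of the 20 without. The label thus has a check from outside the selection mainly in the cells with Fscn1, and the 20 cells without it are described apart further on. The dendritic cell growth factor receptor Flt3 or the dendritic cell transcription factor Zbtb46 was detected in 61 of the 66 cells.

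The 3 comparison classes were gated from the same droplets: 146 cDC1-gated cells with Xcr1 or Clec9a, 169 cDC2-gated cells with Cd209a and a UMI of Flt3 or Zbtb46, and 316 MHC class II-positive macrophages with C1q genes and Ms4a7 but without Flt3 or Zbtb46. Outside the mature cells, Ccr7 was detected in 23.1% of cDC2-gated cells, 4.11% of cDC1-gated cells and 0.316% of macrophages, and Cacnb3 in 1.18%, 2.74% and 0.633%. Macrophages served as the class that should lack these genes. In free RNA, from droplets with at most 100 UMIs, Ccr7 was 0.0185 cp10k, Ccl22 0.00485 cp10k and Fscn1 0.610 cp10k, against 14.0 cp10k of Ccr7 in the summed mature cells. Median UMIs per cell ranged over mice from 6560 to 19375 in mature cells and from 16534 to 25633 in macrophages, so the mature cells were not the deeper class. Siglech, a plasmacytoid dendritic cell and microglia gene, was detected in 52.1% of cDC1-gated cells, in 35.5% of cDC2-gated cells and in 7.58% of mature cells, and the comparison with cDC1-gated cells is therefore also given for cDC1-gated cells with Xcr1 and without Siglech.

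Mature cells took a larger share of droplets in ancrod than in saline mice, without any overlap between the treatments. Of quality droplets they made up 0.0871%, 0.0719%, 0.0797% and 0.0720% in saline replicates 1 to 4 and 0.237%, 0.288%, 0.162% and 0.138% in ancrod replicates 1 to 4. The lowest ancrod mouse was the one of batch 2, and the counts behind each share were 4 to 17 cells. The means were 0.0777% ± 0.00725 (SD, n = 4) and 0.206% ± 0.0688 (SD, n = 4), a difference of 0.128 percentage points (two-sided exact permutation test, p = 0.0286, the smallest that 70 arrangements allow). After adjustment over the 5 shares compared it was 0.143 and did not pass 0.05. The difference was 0.149 points within batch 1 (0.0795% against 0.229%, exact permutation p = 0.1, the smallest for 3 against 3) and 0.0658 points within batch 2, where each treatment had 1 mouse.

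The direction held for stricter definitions of the cells. The difference was 0.0948 points with at least 6 cp10k of the 3 markers, 0.0726 points when Cacnb3 was also required and 0.0683 points without the cells that lacked Fscn1, each with p = 0.0286 by exact permutation. With all 3 markers detected it was 0.0214 points (exact permutation p = 0.0571). Thinning every cell to 2000 UMIs gave 0.0948 points (exact permutation p = 0.0286). Shares of this kind depend on how many other cells were captured from each mouse. The authors' methods state that fibroblasts and macrophages of the injury site also tended to larger proportions in ancrod mice. The methods name easier dissociation after less fibrosis as the likely reason. The gated cDC1 and macrophage shares, given below, were also larger on average in ancrod mice. The part of dissociation in the share of mature cells was not tested.

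Measured against all gated dendritic cells, the difference between treatments did not pass the test. Mature cells were 11.9%, 12.5%, 10.6% and 22.2% of all gated dendritic cells in saline and 21.5%, 21.5%, 14.7% and 23.3% in ancrod mice. Saline replicate 4, with 18 gated dendritic cells in all, lay above every ancrod mouse except replicate 4. The means were 14.3% ± 5.33 and 20.3% ± 3.81 (SD, n = 4 each), a difference of 5.96 points (exact permutation p = 0.114, adjusted 0.190). With treatments exchanged within batches the exact permutation p was 0.05, the smallest that 40 arrangements allow. The difference was 7.57 points within batch 1 (exact permutation p = 0.1, the smallest for 3 against 3) and 1.11 points within batch 2. Stricter definitions made it smaller, with 2.42 points when Cacnb3 was also required (exact permutation p = 0.571), 2.07 points without the cells that lacked Fscn1 (exact permutation p = 0.486) and 0.655 points with all 3 markers detected (exact permutation p = 0.686). The gated cDC1 share of quality droplets was 0.171% in saline and 0.447% in ancrod mice on average (exact permutation p = 0.114), and the gated cDC2 share was 0.346% and 0.379% (exact permutation p = 0.743). The share of MHC class II-positive macrophages was 0.574% and 0.778% (exact permutation p = 0.286).

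**Figure D1:**
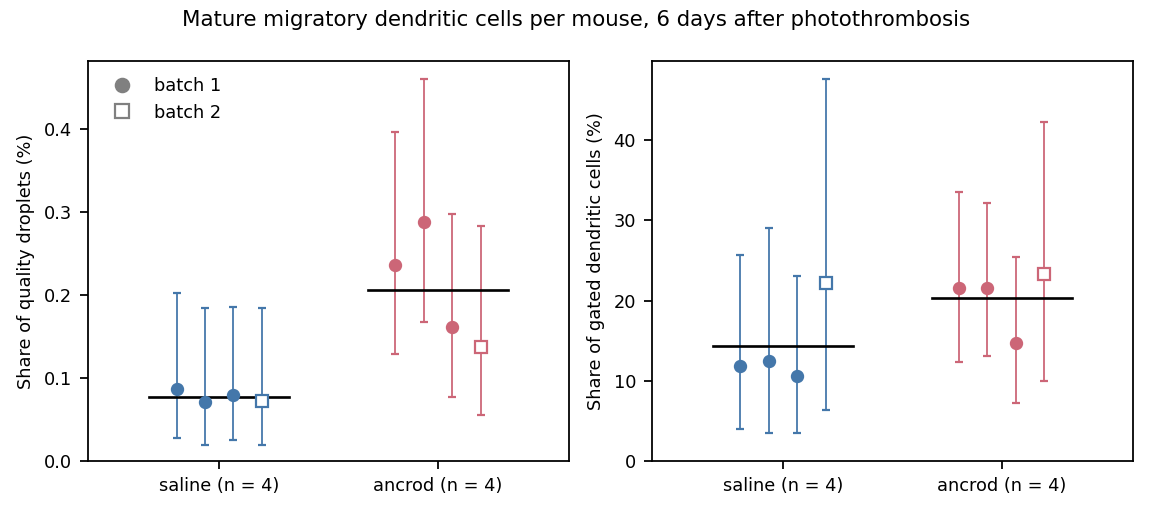
Share of mature migratory dendritic cells per mouse, in percent of quality droplets (left) and in percent of all gated dendritic cells (right), with exact 95% binomial intervals that cover counting error only, and a line at each mean (n = 4 mice). Filled circles are batch 1 and open squares batch 2. On the left the ancrod mice lie between 0.138% and 0.288%, above the saline mice at 0.0719% to 0.0871%, and on the right the groups overlap.

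UMIs were summed per mouse and class and given as UMIs per 1000000 (CPM), so that the mouse is the replicate. Ccr7 in mature cells was 1379, 1347, 1416 and 1641 CPM in saline and 998, 1362, 1467 and 2291 CPM in ancrod mice, against a mean of 46 CPM in cDC2-gated cells, 4.68 CPM in cDC1-gated cells and 0.171 CPM in macrophages. Fscn1 was 1551, 735, 762 and 1843 CPM in saline and 434, 737, 833 and 1581 CPM in ancrod mice, and at most 4.28 CPM in any mouse of the other classes. The gaps to the other classes follow from the selection, which used both genes. Between mice, Ccr7 in mature cells ran from 998 to 2291 CPM and Fscn1 from 434 to 1843 CPM. Ccl22 was 230, 40.8, 411 and 405 CPM in saline and 308, 68.1, 211 and 1093 CPM in ancrod mice, so this chemokine varied most among the 3 markers, with the second replicate lowest in both treatments.

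Cacnb3 was 230, 245, 194 and 539 CPM in saline and 200, 328, 239 and 424 CPM in ancrod mice. The treatments overlapped, and no mouse of another class exceeded 5.00 CPM. Against the other classes Cacnb3 was higher by 7.50 ± 0.42 (log2, SE) for cDC2-gated cells, 7.16 ± 0.44 for cDC1-gated cells and 9.06 ± 0.40 for macrophages (edgeR quasi-likelihood test with the mouse as a block, adjusted p = 2.9e-08, 5.5e-08 and 6.1e-10). These fits used the 6 mice with at least 5 cells of both classes, saline replicates 1 and 3 and all ancrod replicates, and left out every gene of the gates compared. Fits without the cells that lacked Fscn1, given further on, used all 8 mice, so they changed the mice as well as the cells. The cells of all classes were gated on RNA of the same droplets, so the comparisons describe classes defined by other genes, not sorted populations.

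**Figure D2:**
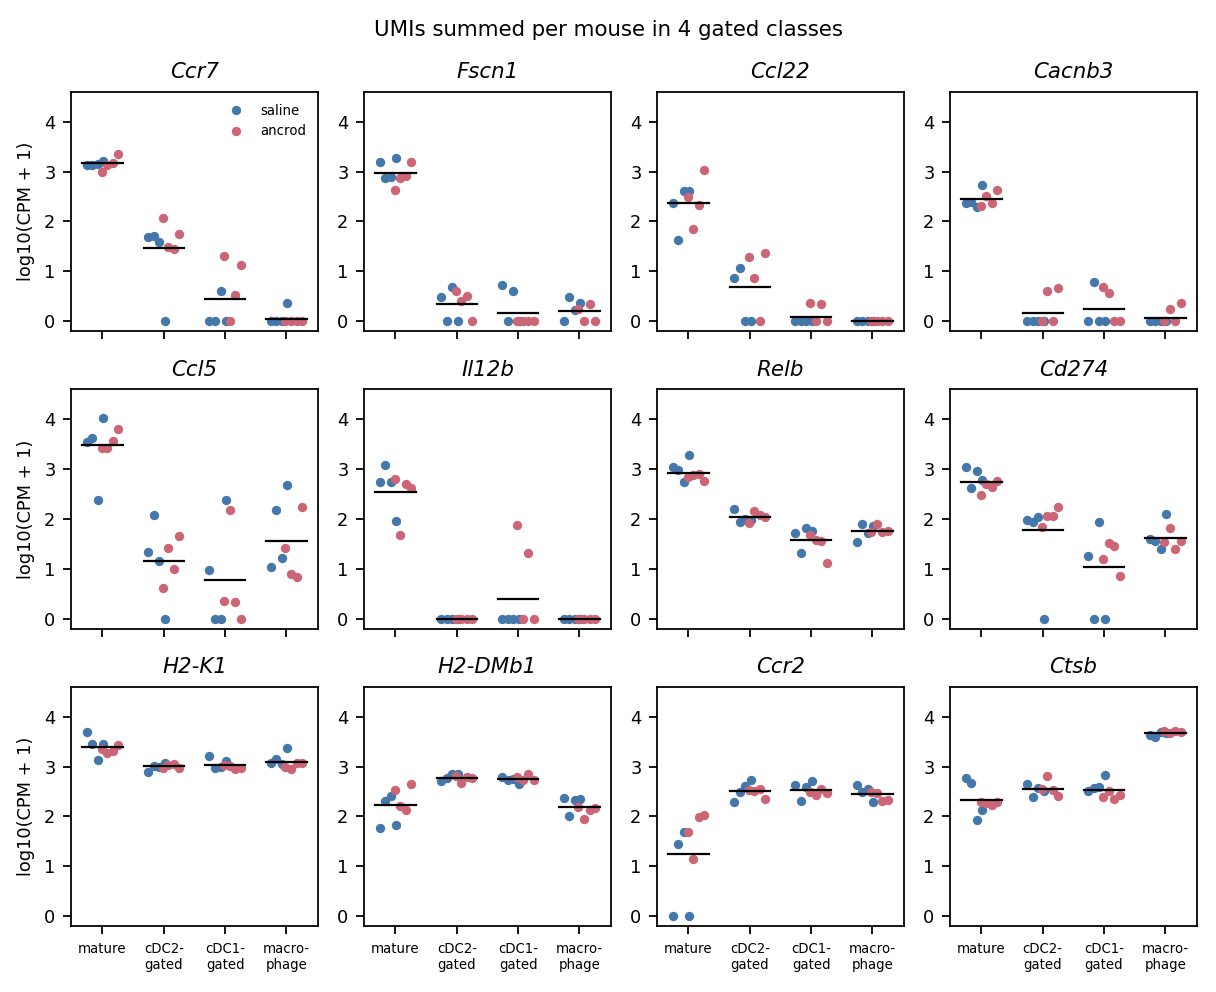
Level of 12 genes, log10(CPM + 1), in UMIs summed per mouse for mature cells, cDC2-gated cells, cDC1-gated cells and macrophages, with blue points for saline and red points for ancrod mice and a line at the mean of 8 mice. Ccr7, Fscn1 and Ccl22 chose the mature cells. Cacnb3, Ccl5, Il12b, Relb and Cd274 lie highest in mature cells, Ccr2 lies lowest there, and Ctsb lies highest in macrophages.

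Of 29 genes listed as known for mature dendritic cells beside the selecting ones, Cacnb3 included, nearly all that could be tested were higher in the mature cells of these 6 mice. Against cDC2-gated cells 21 of 22 tested genes were higher and 0 lower, where 13.2% of all 3691 tested genes were higher and 9.08% lower. Against cDC1-gated cells 21 of 22 were higher and 0 lower, where 16.4% of 3616 genes were higher and 12.2% lower. Against macrophages 19 of 21 were higher and 1 lower, where 20.3% of 4543 genes were higher and 21.1% lower. Median log2 differences of the list were 3.33, 3.79 and 4.83, beside medians of all tested genes of -0.06, -0.06 and -0.10. A gene could enter these tests through its level in the mature cells alone, so the counts describe the genes that passed the filter on low counts.

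Slco5a1, a member of the organic anion transporter family, was 373, 40.8, 303 and 315 CPM in saline and 73.8, 200, 161 and 149 CPM in ancrod mice and had no UMI in any other class. With a floor of 3 counts over the group, it was at least 150-fold higher than in cDC2-gated cells, 173-fold than in cDC1-gated cells and 342-fold than in macrophages. Mreg (melanoregulin, an organelle transport protein) was 1436, 463, 1307 and 2472 CPM in saline and 681, 967, 450 and 690 CPM in ancrod mice, and at least 819-fold higher than in cDC1-gated cells, where it was not detected. Ly75, the endocytic receptor DEC-205, ranged from 200 to 674 CPM and was higher by 7.16 ± 0.35 (log2) than in cDC2-gated cells and by 8.23 ± 0.35 than in macrophages, but by 2.68 ± 0.38 than in cDC1-gated cells. Eno3, a muscle form of the glycolytic enzyme enolase, ranged from 99.8 to 247 CPM and was higher by 4.43, 4.34 and 4.92 (log2) in the order cDC2-gated, cDC1-gated, macrophage.

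Most costimulatory genes tested were higher in mature cells. Of the genes tested, 4 of 7 were higher than in cDC2-gated cells, 4 of 5 than in cDC1-gated cells and 9 of 9 than in macrophages, and none was lower. Among all tested genes 13.2%, 16.4% and 20.3% were higher. Cd80, a ligand of Cd28 on T cells, was 689, 721, 545 and 360 CPM in saline and 425, 592, 505 and 774 CPM in ancrod mice, and was higher by 0.72 ± 0.17, 3.1 ± 0.25 and 3.36 ± 0.22 (log2) than in cDC2-gated cells, cDC1-gated cells and macrophages. Cd40, the receptor through which T cells license dendritic cells, was 172, 54.4, 145 and 22.5 CPM in saline and 152, 106, 106 and 424 CPM in ancrod mice, a wide spread, and was higher by 1.86 ± 0.35, 4.91 ± 0.38 and 2.91 ± 0.34 (log2). Cd86, the other Cd28 ligand, did not follow: its difference was -0.04 ± 0.21 (log2) from cDC2-gated cells (edgeR adjusted p = 0.92) and 0.60 ± 0.22 from cDC1-gated cells (edgeR adjusted p = 0.057), and its difference of 1.05 ± 0.26 from macrophages fell to 0.42 (edgeR adjusted p = 0.23) without the cells that lacked Fscn1.

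Several genes that restrain T cells or cytokine signals were higher as well. Cd274, which encodes the inhibitory ligand PD-L1, was 1120, 422, 932 and 607 CPM in saline and 295, 507, 428 and 573 CPM in ancrod mice, with a mean of 95 CPM in cDC2-gated cells, 23.3 CPM in cDC1-gated cells and 48.1 CPM in macrophages. Its log2 differences were 2.48 ± 0.24, 4.43 ± 0.31 and 4.11 ± 0.30. Il4i1, an enzyme that breaks down amino acids and dampens T cells, was even between mice, from 187 to 278 CPM, and higher by 4.23 ± 0.38, 6.88 ± 0.45 and 6.63 ± 0.40 (log2). Socs2, a suppressor of cytokine signaling, was 201, 245, 145 and 292 CPM in saline and 113, 111, 261 and 573 CPM in ancrod mice, and higher by 7.11 ± 0.46, 7.63 ± 0.46 and 6.90 ± 0.42 (log2). In the whole list 3 of 6, 3 of 5 and 4 of 7 tested genes were higher and 0, 1 and 1 lower. For all tested genes the shares were 13.2%, 16.4% and 20.3% higher and 9.08%, 12.2% and 21.1% lower. The galectin gene Lgals3 was lower than in macrophages by 2.23 ± 0.33 on the log2 scale, and Havcr2 (TIM-3) was lower than in cDC1-gated cells by 1.74 ± 0.39.

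Among cytokines, Il12b was detected in mature cells of every mouse and had no UMI in the cDC2 and macrophage classes. Il12b, the shared subunit of interleukins 12 and 23, was 546, 1224, 557 and 89.9 CPM in saline and 642, 46.8, 505 and 414 CPM in ancrod mice. The 6 mice of the fits held 354 UMIs of it in mature cells and 0 in cDC2-gated cells or macrophages, so that it was at least 366-fold and at least 836-fold higher with a floor of 3 counts over the group. In cDC1-gated cells it averaged 11.9 CPM over 8 mice, and the difference was 5.11 ± 0.56 (log2). Its detection split the cells: it was found in 50.0% of the 46 cells with Fscn1 and 20.0% of the 20 without.

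Il15 and its receptor chain Il15ra, which presents interleukin 15 to lymphocytes, were both higher. Il15ra was 230, 177, 84.7 and 89.9 CPM in saline and 60.7, 136, 77.8 and 159 CPM in ancrod mice, and its log2 differences were 4.63 ± 0.43, 4.70 ± 0.40 and 4.55 ± 0.40 in the order cDC2-gated, cDC1-gated, macrophage. Il15 differed by 4.20 ± 0.58, 2.87 ± 0.33 and 2.42 ± 0.38. Il1b, an inflammatory cytokine, differed by -0.51 ± 0.36 from cDC2-gated cells (edgeR adjusted p = 0.36) and was higher by 1.55 ± 0.32 than in cDC1-gated cells and 2.02 ± 0.42 than in macrophages. Both calls were lost without the cells that lacked Fscn1 (0.39 and 0.73, edgeR adjusted p = 0.31 and 0.061). In the cytokine list 3 of 8, 4 of 5 and 4 of 7 tested genes were higher and 0, 0 and 1 lower. Beside them, 13.2%, 16.4% and 20.3% of all tested genes were higher and 9.08%, 12.2% and 21.1% lower.

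Chemokine genes did not move as a group, but Ccl5 and Cxcl16 were higher in the mature cells than in every other class. Ccl5, a chemokine that attracts T cells and monocytes, was 3562, 4203, 242 and 10382 CPM in saline and 2660, 2687, 3577 and 6206 CPM in ancrod mice. Saline replicate 3 was far below the other mice and still above the highest cDC2-gated value of 120 CPM. Its log2 differences were 7.21 ± 0.42, 7.97 ± 0.80 and 6.87 ± 0.56. Cxcl16, a ligand for Cxcr6 on T cells, ranged from 508 to 1251 CPM and was higher by 1.38 ± 0.21, 2.00 ± 0.26 and 1.54 ± 0.20. Ccl17, the partner of Ccl22 at Ccr4, was 28.7, 0, 24.2 and 0 CPM in saline and 78.1, 68.1, 700 and 382 CPM in ancrod mice. The treatments did not overlap for Ccl17, but its counts were too low to be tested. Of all 1504 genes tested between treatments, 1.33% were higher in ancrod mice without overlap. All 126 UMIs of ancrod replicate 3 and all 16 of ancrod replicate 2 lay in 1 cell each, and neither cell held Fscn1, whereas the 18 UMIs of ancrod replicate 1 and the 36 of ancrod replicate 4 were each spread over 5 cells, with and without Fscn1.

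Most of the other chemokines tested were lower in mature cells than in macrophages. Ccl2, a ligand of Ccr2, was lower by 6.01 ± 0.45 on the log2 scale, Cxcl2 by 4.41 ± 0.53, Ccl3 by 3.15 ± 0.57 and Ccl4 by 3.21 ± 0.57. Ccl6 and Ccl9 were also lower, which made 6 of 8 tested chemokines lower and 2 higher. Of all genes tested against macrophages 21.1% were lower and 20.3% higher. Saline replicate 1 held Ccl4 at 1379 CPM, where the other 7 mice held 0 to 78.1 CPM. That mouse also held the 1 mature cell with high C1qa, described with the other cell types.

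Ccr2 was lower in mature cells than in every other class. This receptor of monocytes and their progeny for Ccl2 was 0, 27.2, 48.4 and 0 CPM in saline and 47.7, 12.8, 94.4 and 106 CPM in ancrod mice, while every mouse of the other classes held at least 189 CPM. Its log2 differences were -2.51 ± 0.38, -2.52 ± 0.38 and -2.28 ± 0.42. Ccr1, a receptor for inflammatory chemokines such as Ccl3, was lower than in cDC2-gated cells by 1.63 ± 0.31 on the log2 scale. Gpr183, an oxysterol receptor that positions dendritic cells in lymphoid organs, ranged from 230 to 944 CPM and was higher than in macrophages by 1.72 ± 0.26. In the list of receptors other than Ccr7, 0 of 5, 2 of 4 and 1 of 6 tested genes were higher and 3, 1 and 3 lower. Over all tested genes the shares were 13.2%, 16.4% and 20.3% higher and 9.08%, 12.2% and 21.1% lower.

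Genes of NF-kB signaling and survival were mostly higher in the mature cells. Of 22 genes tested in each comparison, 15 were higher and 1 lower than in cDC2-gated cells, and 22 were higher than in cDC1-gated cells and 22 than in macrophages. Median log2 differences were 1.08, 2.84 and 2.04. Higher among all tested genes were 13.2%, 16.4% and 20.3%. Relb, the non-canonical NF-kB subunit tied to dendritic cell maturation, was 1120, 939, 557 and 1888 CPM in saline and 686, 762, 811 and 573 CPM in ancrod mice. No mouse of another class exceeded 157 CPM, and Relb was higher by 2.72 ± 0.19, 4.30 ± 0.26 and 3.85 ± 0.22 (log2). Rel (c-Rel) was 1666, 2190, 3074 and 2921 CPM in saline and 1762, 2171, 2239 and 1570 CPM in ancrod mice, and higher by 1.13 ± 0.19, 2.53 ± 0.23 and 3.16 ± 0.19.

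The kinase and its brakes moved in the same direction. Map3k14 encodes NIK, the kinase that opens the non-canonical pathway, and was higher by 0.89 ± 0.21, 1.13 ± 0.28 and 4.45 ± 0.23 (log2). Traf3 and Birc2, parts of the complex that degrades NIK, were higher by 2.57 ± 0.21, 2.80 ± 0.22 and 2.13 ± 0.26 and by 2.29 ± 0.21, 3.91 ± 0.27 and 4.42 ± 0.27. Traf3 was 1092, 612, 520 and 1461 CPM in saline and 282, 575, 222 and 477 CPM in ancrod mice, so that saline replicates lay higher with an overlap of 1 ancrod mouse. Bcl2a1a, a survival gene of a family of near-identical copies whose reads counting may split, was higher by 2.78 ± 0.37, 3.46 ± 0.30 and 3.78 ± 0.30. Without the cells that lacked Fscn1, 13 of 20, 16 of 16 and 18 of 22 genes of the list were higher, where 519 of 2536, 483 of 2293 and 804 of 4031 of all genes tested in those fits were higher.

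The kappa B motif, the letters that NF-kB binds, was looked for on both strands in the 250 bases before the start of each gene in RefSeq (GRCm38.p6, a build other than that of the counts). A match was found for 9 of 20 genes of the NF-kB list with a promoter in the table (45.0%), for 5 of 13 MHC class I genes (38.5%), for 0 of 3 of the markers Ccr7, Fscn1, Ccl22 and Cacnb3, and for 8.23% of 27025 genes. Other lists held it as well, in 4 of 8 genes of the stress and dissociation list (50.0%) and 4 of 10 chemokine genes (40.0%). A gene with several starts counted when any of them held a match, and the start with the most matches is shown. Nfkb2 (which encodes the partner of Relb), Rel, Traf3 and the MHC class I gene H2-K1 were all higher in the mature cells than in each other class. Their promoters are shown as examples chosen among genes with a match. They are written 5′ to 3′ on the strand of the gene, with the motif in capitals, from chr19:46304487-46304736 (+), chr11:23770970-23771219 (-), chr12:111166120-111166369 (+) and chr17:34000334-34000583 (-), and overlapping matches run together. A match is a run of letters, not a measured binding site.
Nfkb2: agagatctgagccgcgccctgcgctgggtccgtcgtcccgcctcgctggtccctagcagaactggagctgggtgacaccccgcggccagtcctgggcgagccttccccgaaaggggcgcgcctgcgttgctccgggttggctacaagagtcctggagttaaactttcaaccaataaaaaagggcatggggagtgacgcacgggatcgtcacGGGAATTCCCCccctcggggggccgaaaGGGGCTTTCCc
Rel: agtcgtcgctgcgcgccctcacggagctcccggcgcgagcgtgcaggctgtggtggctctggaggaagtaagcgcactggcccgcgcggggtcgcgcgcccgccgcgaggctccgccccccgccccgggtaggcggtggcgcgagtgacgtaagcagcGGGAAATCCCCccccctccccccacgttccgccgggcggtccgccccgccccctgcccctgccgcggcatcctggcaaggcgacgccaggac
Traf3: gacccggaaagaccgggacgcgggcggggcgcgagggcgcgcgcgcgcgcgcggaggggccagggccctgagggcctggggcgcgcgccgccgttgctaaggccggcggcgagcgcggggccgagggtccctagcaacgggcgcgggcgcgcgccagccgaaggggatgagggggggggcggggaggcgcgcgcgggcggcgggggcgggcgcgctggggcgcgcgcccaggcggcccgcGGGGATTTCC
H2-K1: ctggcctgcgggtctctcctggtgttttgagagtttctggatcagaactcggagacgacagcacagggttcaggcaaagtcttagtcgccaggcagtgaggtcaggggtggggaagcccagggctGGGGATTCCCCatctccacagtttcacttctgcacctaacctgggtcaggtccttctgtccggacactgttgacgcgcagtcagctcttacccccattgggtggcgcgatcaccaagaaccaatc

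Genes of motility and the cytoskeleton were mostly higher. Of the genes tested other than Fscn1, 10 of 17, 10 of 17 and 12 of 18 were higher and 2, 1 and 1 lower, with medians of 1.02, 0.71 and 1.07 (log2). Taken over all tested genes, 13.2%, 16.4% and 20.3% were higher and 9.08%, 12.2% and 21.1% lower. Tbc1d4, a Rab GTPase-activating protein, was 2298, 1347, 1355 and 2899 CPM in saline and 1254, 2197, 1755 and 1315 CPM in ancrod mice, and higher by 2.43 ± 0.22, 3.61 ± 0.20 and 6.28 ± 0.27 (log2). Marcks, a substrate of protein kinase C at the membrane and actin cortex, ranged from 924 to 1963 CPM and was higher by 1.83 ± 0.18, 2.16 ± 0.26 and 1.42 ± 0.19, and its relative Marcksl1 by 1.68 ± 0.22, 5.35 ± 0.35 and 3.54 ± 0.28. The annexin Anxa3 was higher by 4.4 ± 0.33, 5.72 ± 0.36 and 1.62 ± 0.25, and the myosin Myo1g by 1.47 ± 0.20, 2.80 ± 0.25 and 3.77 ± 0.22. Cotl1, a coactosin-like actin-binding protein, went the other way, lower by 0.87 ± 0.20 than in cDC2-gated cells and by 1.39 ± 0.20 than in macrophages.

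MHC class I genes were higher or did not pass the test, whereas class II genes went both ways. In the class I list 12 of 14, 7 of 14 and 13 of 15 tested genes were higher and none was lower, with medians of 1.00, 0.54 and 1.47 (log2). The shares over all tested genes were 13.2%, 16.4% and 20.3% higher and 9.08%, 12.2% and 21.1% lower. H2-K1, a classical class I heavy chain, was 4884, 2802, 1355 and 2787 CPM in saline and 2248, 1839, 2055 and 2695 CPM in ancrod mice, and higher by 1.31 ± 0.22, 1.26 ± 0.18 and 1.21 ± 0.20. H2-K1, H2-D1 and H2-Q7 are close in sequence, and reads may be split between them. Nlrc5, the transactivator of class I genes, was higher by 3.18 ± 0.31, 2.60 ± 0.27 and 3.56 ± 0.25, and the proteasome activator subunit Psme2 by 1.96 ± 0.21, 1.32 ± 0.20 and 2.04 ± 0.19.

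In the class II list, with H2-Aa, H2-Ab1 and Cd74 set aside, 1 of 11, 5 of 11 and 6 of 10 tested genes were higher and 2, 2 and 2 lower. All tested genes gave shares of 13.2%, 16.4% and 20.3% higher and 9.08%, 12.2% and 21.1% lower. The gene higher than in cDC2-gated cells was H2-Eb2, a class II beta chain gene, at 144, 68.0, 157 and 315 CPM in saline and 117, 111, 94.4 and 84.9 CPM in ancrod mice. It had no UMI in cDC1-gated cells or macrophages, and with a floor of 3 counts over the group it was at least 114-fold and at least 227-fold higher there. H2-DMa and H2-DMb1, which load peptides onto class II, were lower than in cDC2-gated cells by 1.06 ± 0.29 and 1.31 ± 0.28 on the log2 scale. H2-DMb1 was 57.5, 204, 254 and 67.4 CPM in saline and 338, 162, 133 and 446 CPM in ancrod mice, below every cDC2-gated value of 456 to 710 CPM. The H2-DMa call was lost without ancrod replicate 2 (-1.04, edgeR adjusted p = 0.052). Without the cells that lacked Fscn1, 9 of 11 tested class II genes were lower than in cDC2-gated cells and 1 higher, where 569 of all 2536 genes tested in that fit were lower and 519 higher.

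**Figure D3:**
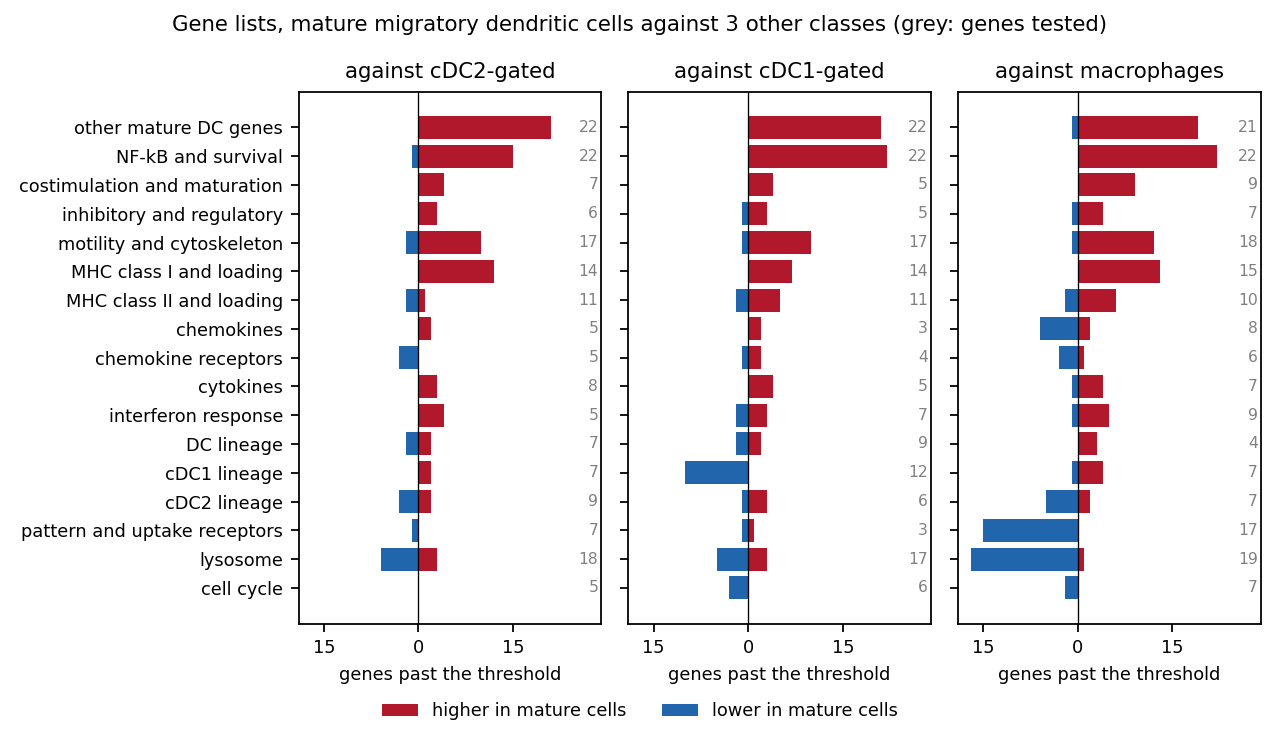
Number of genes of each list that passed the test (edgeR quasi-likelihood, adjusted p below 0.05) in mature cells against cDC2-gated cells, cDC1-gated cells and macrophages, to the right when higher and to the left when lower in mature cells, with the number tested in grey. Genes of NF-kB and survival and other mature dendritic cell genes lie almost wholly to the right, and lysosome and uptake receptor genes lie to the left against macrophages.

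Lineage genes gave a mixed picture. Xcr1 or Clec9a, markers of cDC1, were detected in 11 of the 66 cells, with 3 UMIs or more in 7, and Cd209a, a marker of cDC2, in 6 cells, with 3 UMIs or more in 5. No cell held both. Irf8, the transcription factor of cDC1, was 1350, 476, 121 and 292 CPM in saline and 373, 349, 617 and 255 CPM in ancrod mice, beside means of 53.6 CPM in cDC2-gated and 1164 CPM in cDC1-gated cells, and differed from them by 2.86 ± 0.48 and -1.36 ± 0.28 (log2). Only saline replicate 1 lay above the cDC1 mean, and 31 of its 47 Irf8 UMIs lay in 1 cell, the one that also held 59 UMIs of the macrophage gene C1qa. Batf3, its partner, was higher than in cDC2-gated cells by 2.92 ± 0.30 and differed by 0.61 ± 0.32 from cDC1-gated cells (edgeR adjusted p = 0.17). Of the cDC1 list 10 of 12 tested genes were lower than in cDC1-gated cells and 0 higher, where 12.2% of all tested genes were lower and 16.4% higher. Tlr3 was among the 10, lower by 4.03 ± 0.41 on the log2 scale. A gene could enter tests against cDC1-gated cells through its level there alone, and those cells were chosen by Xcr1 or Clec9a. Counts of cDC1 genes against them therefore describe the classes as gated.

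The cDC2 genes Clec10a, a lectin, Itgam, an integrin chain, and Klf4 were lower than in cDC2-gated cells by 1.88 ± 0.43, 1.99 ± 0.33 and 1.35 ± 0.34 on the log2 scale. Of the cDC2 list 2 of 9 tested genes were higher and 3 lower in that comparison, where 13.2% of all tested genes were higher and 9.08% lower. Id2, a transcription factor shared by both conventional lineages, ranged from 929 to 1855 CPM and was higher by 2.83 ± 0.29, 0.98 ± 0.22 and 2.02 ± 0.21. The cDC1 call for Id2 was lost against cDC1-gated cells with Xcr1 and without Siglech (0.56, edgeR adjusted p = 0.073). That fit used saline replicate 3 and ancrod replicates 1 to 3, the mice with at least 5 of those cells, so the mice changed as well. With those cells as the comparison, 22 of 22 other mature dendritic cell genes, 21 of 22 NF-kB genes and 0 of 12 cDC1 genes were higher, and 11 of 12 cDC1 genes were lower, where 586 of all 3618 genes tested in that fit were higher and 366 lower. The 7 plasmacytoid genes tested against all cDC1-gated cells, each lower in mature cells, became 3 tested and 0 lower. As the comparison cells were chosen to lack Siglech, this count cannot be read apart from that choice.

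Genes of antigen uptake and digestion were lower than in macrophages. Of the pattern and uptake receptors 0 of 17 tested genes were higher and 15 lower (median -3.10, log2), and of the lysosome genes 1 was higher and 17 of 19 were lower (median -2.16). Lower among all genes tested against macrophages were 21.1%, and higher were 20.3%. A gene could enter these tests through its level in macrophages alone, so the counts describe the classes as gated. The protease genes Ctsd and Ctsb were lower by 5.25 ± 0.32 and 4.49 ± 0.28, and Cd68, a lysosomal glycoprotein gene, by 3.98 ± 0.29. Ctsb was 575, 476, 84.7 and 135 CPM in saline and 195, 183, 172 and 191 CPM in ancrod mice, with a macrophage mean of 4723 CPM. Cst3, which encodes the protease inhibitor cystatin C, was the lysosome-list gene that was higher than in macrophages, by 2.28 ± 0.25. Against cDC2-gated cells 3 of 18 lysosome genes were higher and 6 lower, and against cDC1-gated cells 3 of 17 were higher and 5 lower. Of the pattern and uptake receptors 0 of 7 and 1 of 3 tested genes were higher in that order, and 1 and 1 lower. Among all tested genes 13.2% and 16.4% were higher and 9.08% and 12.2% lower.

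No tested gene of the cell cycle list was higher in mature cells. Of this list 0 of 5, 0 of 6 and 0 of 7 tested genes were higher and 0, 3 and 2 lower. Over all tested genes 13.2%, 16.4% and 20.3% were higher and 9.08%, 12.2% and 21.1% lower, so few higher calls could be looked for among so few genes. In 5 of the 66 cells 2 or more genes were detected out of Cenpf, Mki67, Ccnb2, Top2a and Cdk1, and in 24 cells 3 or more of the 15 genes of the list. Interferon response genes were higher for 4 of 5, 3 of 7 and 5 of 9 tested genes and lower for 0, 2 and 1, where 13.2%, 16.4% and 20.3% of all tested genes were higher. Some of these calls were lost in the fits without the cells that lacked Fscn1, which used all 8 mice. Without those cells Isg15, an interferon-induced ubiquitin-like gene, went from 1.6 ± 0.44 to 0.06 (log2, edgeR adjusted p = 0.92) against macrophages, and Irf7, an interferon regulatory factor, from 1.34 ± 0.47 to -0.23 (edgeR adjusted p = 0.74). The Isg15 call against cDC1-gated cells, 1.11 ± 0.39, was lost without saline replicate 1 or 3 or without ancrod replicate 1, 2 or 3 (0.69 to 1.18, edgeR adjusted p = 0.059 to 0.28). In the glycolysis list 1 of 10, 1 of 10 and 2 of 12 tested genes were higher, Eno3 among them each time, and 2, 2 and 5 were lower. Of all tested genes 13.2%, 16.4% and 20.3% were higher and 9.08%, 12.2% and 21.1% lower. Ldha (lactate dehydrogenase A) was lower by 1.12 ± 0.24, 1.18 ± 0.25 and 1.15 ± 0.22.

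Fibrinogen binds leukocyte integrins, and their chains were among the genes measured. Itgb1 was higher by 1.16 ± 0.23, 1.34 ± 0.22 and 0.89 ± 0.20 (log2), while Itgam and Itgb2, the chains of the fibrinogen receptor Mac-1, were lower than in cDC2-gated cells by 1.99 ± 0.33 and 1.31 ± 0.26. Itgam was 0, 0, 60.5 and 0 CPM in saline and 30.4, 17.0, 38.9 and 31.8 CPM in ancrod mice, so that the only saline mouse with a UMI was replicate 3. In this list of 7 genes 1 of 6, 1 of 4 and 2 of 6 tested genes were higher and 2, 0 and 3 lower, beside 13.2%, 16.4% and 20.3% higher and 9.08%, 12.2% and 21.1% lower among all tested genes. The difference of Itgax, another leukocyte integrin chain, from macrophages was positive and turned to -1.12 (log2) without the cells that lacked Fscn1. The early response gene Fos, which tissue dissociation induces, was lower by 1.28 ± 0.23, 1.54 ± 0.23 and 2.04 ± 0.22.

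Outside the lists, the largest differences that went the same way in all 6 mice named further genes. Strip2, part of a phosphatase and kinase complex, was higher than in cDC2-gated cells by 6.93 ± 0.34 (log2) and than in macrophages by 9.80 ± 0.44, and the transporter gene Slc22a23 was higher than in cDC2-gated cells by 7.99 ± 0.51. Zfp366, which encodes the dendritic cell zinc finger protein DC-SCRIPT, was higher than in macrophages by 9.34 ± 0.43. Kit, the stem cell factor receptor, and Tnfrsf4, the costimulatory receptor OX40, had no UMI in macrophages of the 6 mice and were at least 236-fold and at least 116-fold higher with a floor of 3 counts over the group. Tmem150c was at least 82.7-fold higher than in cDC2-gated cells and Adcy6, an adenylate cyclase, at least 64.1-fold. Against cDC1-gated cells Atxn1, Dscam, Ankrd33b and Syn3 were higher by 9.18 ± 0.51, 8.47 ± 0.50, 8.28 ± 0.44 and 8.17 ± 0.52.

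In the other direction, Emp1, an epithelial membrane protein, and Cd244a were lower than in cDC2-gated cells by 3.27 ± 0.49 and 2.97 ± 0.41 on the log2 scale, followed by Zfp36l2, Ifitm6, Tgfbi, Dab2, Ccr2, Pid1, Gpr141 and Dclre1c, lower by 2.88 to 2.27. Thbs1 (thrombospondin 1), Clec4e (the receptor Mincle) and Itga9 had no UMI in mature cells of the 6 mice and were at least 156-fold, 32.1-fold and 30.6-fold lower than in macrophages. Gpnmb and the complement receptor gene C5ar1 were lower by 7.99 ± 0.49 and 7.58 ± 0.54. Against cDC1-gated cells Mctp2, Grm8 and Cox6a2 were at least 57.7-fold, 59.8-fold and 37.9-fold lower, and Siglech was lower by 6.25 ± 0.41. These values hold for all cDC1-gated cells, of which 52.1% held the plasmacytoid dendritic cell and microglia gene Siglech. Against those with Xcr1 and without Siglech, fewer genes of the plasmacytoid list could be tested and none of these was lower. Those cells were chosen to lack Siglech, so this result cannot be read apart from that choice.

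The 20 cells without Fscn1 differed from the 46 with it in more than that gene. The split was made after the values were seen and is a description without a test. Cells with Fscn1 numbered 5, 4, 3 and 3 in saline and 8, 12, 6 and 5 in ancrod mice, and cells without it 0, 0, 2 and 1 in saline and 6, 5, 4 and 2 in ancrod mice, so that 17 of the 20 came from ancrod mice. MHC class II RNA had a median of 67.2 cp10k in the 46 cells, with 29 below 100 cp10k, and 385 cp10k in the 20 cells, with 18 at 250 cp10k or more. The 20 cells were the deeper ones, with a median of 18720.5 UMIs against 12819.5, so the missing Fscn1 did not go with lower depth. Ccr7 was 19.8 cp10k in the summed UMIs of cells with Fscn1 and 4.87 cp10k in those without.

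**Figure D4:**
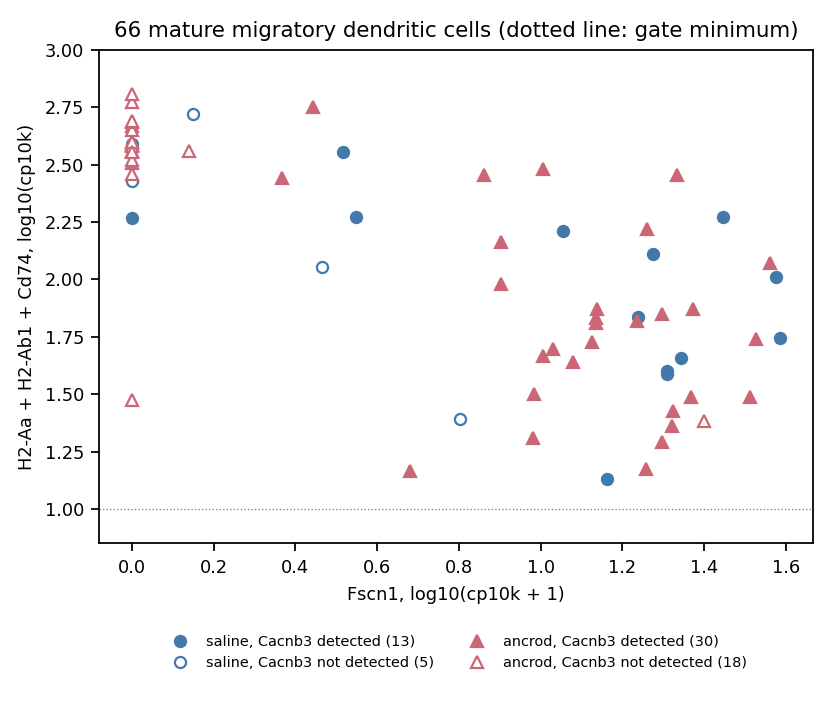
Each of the 66 cells by Fscn1, log10(cp10k + 1), and by H2-Aa, H2-Ab1 and Cd74 together, log10(cp10k), with circles for saline and triangles for ancrod mice, filled where Cacnb3 was detected (13 saline and 30 ancrod cells) and open where not (5 and 18). The dotted line is the class II minimum of the selection, and cells without Fscn1, at 0 on the x axis, lie at the upper left with mostly open symbols.

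Marker genes that the selection did not use followed the split. Cacnb3 was detected in 89.1% of the cells with Fscn1 and 10.0% of those without, Anxa3 in 89.1% and 25.0%, Socs2 in 69.6% and 15%, Slco5a1 in 67.4% and 10.0%, and Il15ra in 56.5% and 0%. The chemokine receptors Ccr1 and Ccr2, the cDC2 gene Clec10a and the class II loading gene H2-DMb1 were detected more often in the cells without Fscn1. Ccr1 was detected in 2.17% of the cells with Fscn1 and 70% of those without, Ccr2 in 2.17% and 50.0%, Clec10a in 0% and 50.0%, and H2-DMb1 in 34.8% and 100%. Wdfy4, needed for cross-presentation, was detected in 13% and 90.0%.

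Some maturation genes were shared by both kinds. Relb was detected in 97.8% of the cells with Fscn1 and 95% of those without, and Cd83, a surface marker of activated dendritic cells, in 97.8% and 100%. Cd209a was found in 0 of the 46 cells and 6 of the 20, and Xcr1 or Clec9a in 7 and 4. The 46 cells thus mostly held Cacnb3 beside the genes that chose them, and the 20 held Ccr7, Ccl22 and mostly Relb with high class II RNA. A doublet score marked 1 of the 66 cells, in saline replicate 1, and the part of free RNA in these 20 cells was not tested.

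**Figure D5:**
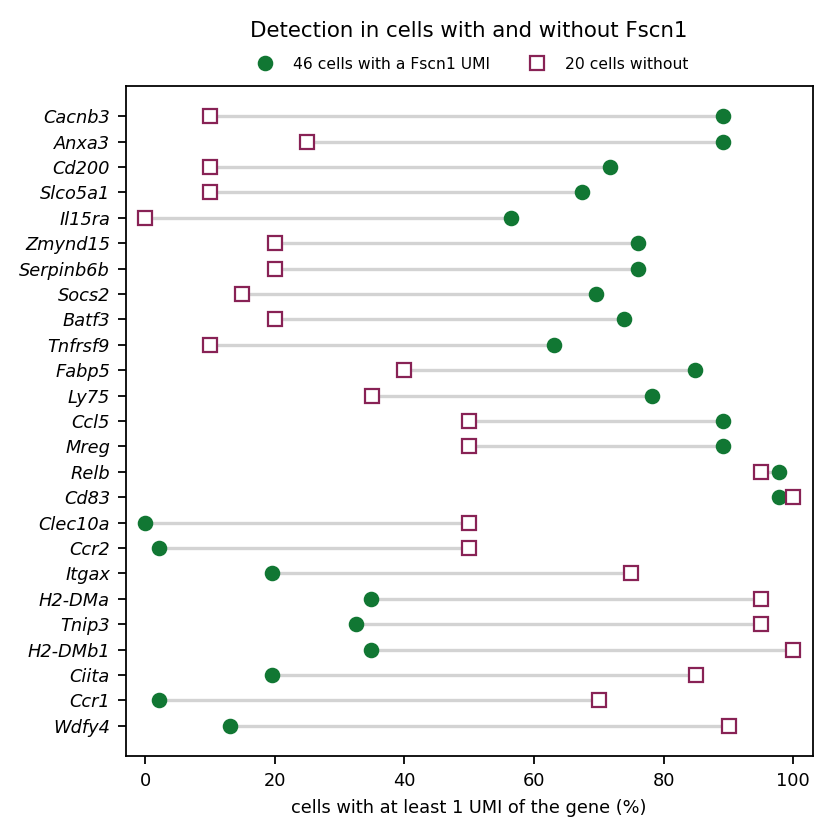
Percent of cells with at least 1 UMI of each gene, in the 46 cells with Fscn1 (filled circles) and the 20 without (open squares). Cacnb3 and Il15ra lie far to the right for cells with Fscn1 (89.1% against 10.0%, and 56.5% against 0%), Relb and Cd83 lie together, and Wdfy4 and Ccr1 lie to the right for cells without.

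Between treatments, no gene of the mature cells passed the threshold. Of 1504 genes tested in the 8 mice 0 were called by edgeR (0% either way), 76 had an unadjusted p under 0.05, and DESeq2 also called 0 (81 unadjusted). Each saline mouse had 4 or 5 of these cells. The 4 saline mice held 34811 to 82641 summed UMIs of these cells and the ancrod mice 94284 to 234903. The groups did not overlap for 20 genes higher (1.33%) and 26 lower (1.73%) in ancrod mice, and 6 of the 20 were mitochondrial genes. The median mitochondrial share of these cells ranged over mice from 1.48% to 2.58% in saline and from 2.01% to 2.69% in ancrod mice, and its part in those 6 genes was not tested.

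The 5 genes with the smallest p are given as values, none past the threshold. Eprs, a tRNA synthetase, was 57.5, 54.4, 36.3 and 67.4 CPM in saline and 325, 234, 156 and 127 CPM in ancrod mice, a log2 difference of 2.06 ± 0.46 (edgeR adjusted p = 0.350). Tnfrsf4 was 115, 122, 157 and 247 CPM in saline and 34.7, 46.8, 44.4 and 53.0 CPM in ancrod mice, a difference of -1.81 ± 0.42 (edgeR adjusted p = 0.350). The groups did not overlap for either gene. Ldlrad4, Tmem19 and Ccrl2 differed by -1.79 ± 0.41, -1.73 ± 0.40 and 1.72 ± 0.46 (edgeR adjusted p = 0.350, 0.350 and 0.782).

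The gene lists likewise held no call between treatments. Median log2 differences, ancrod minus saline, were -0.19 over 20 NF-kB genes, -0.30 over 21 other mature dendritic cell genes and -0.28 over 13 MHC class I genes, beside -0.03 over all 1504 genes. Cacnb3 differed by 0.03 ± 0.41. Cells without Fscn1 were 17 of 48 in ancrod and 3 of 18 in saline mice, and their part in these medians was not tested. An adjusted p above 0.05 does not show that the cells were alike.

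Genes of other cell types gave unequal sums in mature cells, and some of the highest came from 1 or 2 cells of a mouse. The NK cell list had 0 of 8 genes detected, the T cell list 2 of 6, the neutrophil list 3 of 8 and the neuron list 3 of 6. The 12 macrophage genes together were 4.08 to 58.6 cp10k in saline and 5.41 to 12.6 cp10k in ancrod mice, against 245 to 445 cp10k in macrophages, and the highest value came from 1 cell of saline replicate 1 with 59 C1qa UMIs, where the next cell had 6. The B cell list was 0.136 to 14.1 cp10k in saline, highest in the same mouse, and 0.0426 to 0.217 cp10k in ancrod mice. Another of the 5 mature cells of saline replicate 1 held 7 UMIs of the B cell gene Cd79a, with 2 of Ccr7 and 1 of Fscn1. It held no UMI of Cacnb3, Relb, Traf1 or Flt3. The cell with 59 C1qa UMIs held none of Cacnb3 or Flt3, so the label of both cells is in doubt. The astrocyte list was 0.242 to 7.76 cp10k in saline and 0.304 to 33.6 cp10k in ancrod mice, highest in ancrod replicate 2. There 1 cell of 21097 UMIs held 393 UMIs of the glutamate transporter gene Slc1a2, with 15 of Ccr7 and 8 of Fscn1. Another cell of that mouse, of 2489 UMIs, held 41 of Slc1a2 with 4 of Ccr7 and 6 of Fscn1, a similar part of its RNA. The plasmacytoid list was 3.63 to 20.8 cp10k in saline and 3.50 to 7.03 cp10k in ancrod mice, against 7.99 to 13.7 cp10k in macrophages. The monocyte list, by contrast, was 7.76 to 23.4 cp10k in saline and 12.2 to 20.7 cp10k in ancrod mice, against 6.63 to 24.8 cp10k in macrophages. The 4 border-associated macrophage genes, like the other lists chosen with earlier results of these data known, were 1.33 to 9.89 and 2.86 to 7.39 cp10k against 2.39 to 6.48 cp10k. At least 3 genes were detected of the macrophage list in 48 of the 66 cells and of the plasmacytoid list in 27. The same held for the astrocyte list in 9 cells, the microglia list in 7, the monocyte list in 6 and the B cell list in 1. The part of these RNAs in the differences was tested only by leaving out a mouse. Without saline replicate 1, 22 of 22, 21 of 22 and 21 of 23 other mature dendritic cell genes were higher, where 522 of 3707, 617 of 3629 and 1142 of 5877 of all tested genes were higher. Without ancrod replicate 2 it was 21 of 22, 20 of 21 and 19 of 21, where 407 of 3708, 505 of 3350 and 763 of 4544 of all tested genes were higher.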

How the data were processed

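Single-cell RNA sequencing of injured cortex was available for 8 mice, 4 given saline and 4 given ancrod, with 1 library per mouse. Per the labels and the methods, the authors used 3′ v3.1 reagents of 10x Genomics and Cell Ranger 7.1.0, which aligns with STAR, on GRCm39 (mm39), counting exonic and intronic reads. The authors deposited UMI counts of 21848 genes for all droplets, without normalization or filtering, which was checked on the values. Groups came from the sample labels.

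Mature migratory dendritic cells and the 3 comparison classes were gated on UMIs per 10000, as given in the report, in droplets with at least 2000 UMIs and below 20% mitochondrial UMIs (13 genes). The cells, the gene lists and the tests were chosen with earlier results of these data known. UMIs were summed per mouse and class and tested with edgeR 4.0.16 (quasi-likelihood, TMM, filterByExpr, Benjamini-Hochberg threshold 0.05) in R 4.3.3, with the mouse as a block between classes and the gate genes left out. The treatment test was planned for mice with at least 10 cells, but saline mice had 4 or 5, so all 8 mice were used. Scripts were tested on simulated data. Shares were compared by two-sided exact permutation tests over mice, with Clopper-Pearson 95% intervals, which cover counting error only. Each mouse is 1 animal, and members of 1 mouse are not replicates. Doublets were scored with Scrublet in scanpy 1.11.5 (Python 3.11.15) at 0.8% per 1000 droplets and left in, with removal as an alternative.

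Genes were named when they chose the cells, belonged to a list, were among the 10 highest or lowest log2 differences past the threshold that went the same way in each mouse with at least 50 CPM in the higher class, or had the 5 smallest p between treatments. A few genes that this rule named are not reported here. Replicate numbers were checked for pairing by correlating deviations from the group means. Same-numbered mice correlated at 0.00496, -0.0705, 0.000326 and 0.147, and other pairs at -0.206 to 0.213. These values gave no sign of pairing by number but cannot exclude it. Alternatives covered DESeq2 1.42.0, RLE normalization, no filter, other droplet filters and marker thresholds, no mouse block, other minimums of cells per mouse, and leaving out each mouse.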

Additional observations from a re-analysis of the deposited data

Results flagged for a closer look

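Of 22 groups of 4 mice examined, 2 held a mouse that lay far from the other 3 by Dixon's criterion, which chance gives in about 1 of 20 groups. Saline replicate 4 had mature cells as 22.2% of its gated dendritic cells, where the other saline mice had 10.6% to 12.5%. Saline replicate 4 also had Cacnb3 at 539 CPM, where the other saline mice had 194 to 245 CPM. That mouse had 4 mature cells, and it is the saline mouse of batch 2.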

How the results depend on the processing

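The larger share of mature cells among quality droplets in ancrod mice kept its direction under each alternative run, but its p before adjustment over the 5 shares was under 0.05 in some of them and not in others. With all 3 markers detected the difference was 0.0214 percentage points (exact permutation p = 0.0571). The difference of 0.128 points had an exact permutation p = 0.05 when treatments were exchanged within batches and p = 0.125 with the replicate block, the smallest that 40 and 16 arrangements allow, so neither could fall below 0.05, and replicate numbers do not pair the mice. Leaving out each mouse gave 0.101 to 0.151 points (exact permutation p = 0.0286 to 0.0571, the higher value without any of the 4 saline mice). The share of gated dendritic cells, 5.96 points, gave 4.73 to 8.59 points when each mouse was left out and 0.655 to 4.46 points under the 4 stricter definitions of the cells (exact permutation p = 0.343 to 0.686). Without a filter on low counts the called genes rose to 1289 against cDC2-gated cells, 1691 against cDC1-gated cells and 49 between treatments (35 higher, 14 lower, with 12207 tested), none of which the filtered fit called. Without that filter 47.2% of calls against cDC2-gated cells and 47.6% of those against cDC1-gated cells were higher in mature cells, where the filtered fits had 59.3% and 57.4%. Leaving out each mouse gave 630 to 830, 804 to 1045 and 1534 to 2213 calls against cDC2-gated cells, cDC1-gated cells and macrophages, and 0 to 0 between treatments. Against cDC1-gated cells with Xcr1 and without Siglech, Bst2, Tcf4 and Runx2 turned to 0.18, 0.96 and 1.25 (log2). That fit used saline replicate 3 and ancrod replicates 1 to 3, so the mice changed as well. Without the cells that lacked Fscn1, in a fit of all 8 mice, Tnip3, Wdfy4, Itgax, Irf7 and Plac8 turned to -0.26, -0.38, -1.12, -0.23 and -0.29 (log2) against macrophages. Of 7686 values of named genes under alternatives, 7323 kept direction and call, 354 lost the call, 1 gained it (Eprs without the filter) and 8 reversed, and the cause was not tested. Restricting the fits between classes to mice with at least 10 cells of both classes lost 41 of these calls, more than any other setting, and the genes it called included 71.7% to 80.7% of those called in the report, while using all 8 mice lost 15. Without the cells that lacked Fscn1, 47.7% of calls against cDC2-gated cells were higher in mature cells. That fit used all 8 mice, and the fit of all 8 mice with every mature cell gave 54.2%. The replicate block changed no other call, since the fits between classes already hold the mouse as a block. Mice with at least 20 cells of both classes could not be compared. The treatment comparison rested on 34811 to 234903 summed UMIs per mouse, and genes with few UMIs, Ccl17 among them, could not be tested.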

Other observations

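The 8 macrophage genes that could be tested against macrophages were all lower in the mature cells in edgeR's quasi-likelihood test, where 21.1% of all tested genes were lower. The macrophages were chosen by C1q genes and Ms4a7, and a gene could enter through its level in macrophages alone. The count therefore describes the 2 classes as gated. The 8 genes included Apoe, a lipid carrier, with a log2 difference of -5.91 ± 0.37 (SE), and Csf1r, the growth factor receptor of macrophages, with -3.31 ± 0.42. Against cDC2-gated cells neither passed the same test, with log2 differences of -0.47 ± 0.26 for Apoe (adjusted p = 0.211) and -1.18 ± 0.51 for Csf1r (adjusted p = 0.110). Of the monocyte list 0 of 3, 1 of 4 and 2 of 3 tested genes were higher and 1, 3 and 1 lower in the order cDC2-gated, cDC1-gated, macrophage, beside 13.2%, 16.4% and 20.3% higher and 9.08%, 12.2% and 21.1% lower among all tested genes. In this list S100a4 was higher than in cDC1-gated cells by 4.58 ± 0.37 and than in macrophages by 1.47 ± 0.24 on the log2 scale, and Ly6c2 differed from cDC1-gated cells by -4.43 ± 0.63. Of 11 genes that dissociation of tissue can induce, 5 were lower and none higher than in cDC2-gated cells, 2 were lower and 3 higher than in cDC1-gated cells, and 4 were lower and 2 higher than in macrophages. The same shares of all tested genes, 13.2%, 16.4% and 20.3% higher and 9.08%, 12.2% and 21.1% lower, stand beside these counts. Jun, a transcription factor of this list, was lower in each comparison, with log2 differences of -1.32 ± 0.22, -1.12 ± 0.27 and -1.57 ± 0.27. Without the members that lack Fscn1 the counts for these 11 genes were 5 lower against cDC2-gated cells, 1 higher and 2 lower of 10 tested against cDC1-gated cells, and 5 lower against macrophages, where 569 of 2536, 488 of 2293 and 1099 of 4031 of all tested genes were lower.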
